A study of Mus musculus with 16 samples.

Results

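The genes described here encode the machinery with which the endoplasmic reticulum (ER) takes in, folds and N-glycosylates proteins. They were chosen by name, not by measured value. The rule took every listed symbol of the Srp, Srpr, Sec61 to Sec63, Ssr, Spcs, Tram, Pdia and Tmed families, without pseudogenes, and added the chaperones Hspa5, Hsp90b1, Hyou1, Calr, Canx, Dnajb9, Dnajb11 and Dnajc3 and the oligosaccharyltransferase subunits Rpn1, Rpn2, Ddost, Stt3a, Stt3b, Ostc and Dad1. It found 51 of the 13015 genes in the table. By role these are 8 signal recognition genes, 15 translocon genes, 8 chaperones, 4 disulfide isomerases, 7 oligosaccharyltransferase subunits and 9 p24 cargo receptors.

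RNA was measured by sequencing in protrusions (Ps) and cell bodies (CB) of NIH/3T3 cells, a mouse fibroblast line, in 4 groups of 4 libraries. Cells carrying either a control small interfering RNA (siControl) or one directed at Apc (siAPC), the adenomatous polyposis coli gene, were plated for 2 h on filters with pores of 3.0 µm. All groups, the controls included, then received lysophosphatidic acid for 1 h, which drives protrusions through the pores, and were fixed for 10 min before each side was scraped off. The comparisons ask which RNAs are richer on the Ps side than on the CB side, and whether that ratio depends on APC. The knockdown was partial: Apc RNA in siAPC was 31.3% of siControl in CB and 27.9% in Ps. A Ps value and a CB value are shares of separate libraries, so fewer protrusions and less RNA per protrusion cannot be told apart.

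Proteins bound for the ER are caught as they leave the ribosome by the signal recognition particle, docked at its receptor on the ER membrane and threaded through the Sec61 channel. Inside, the signal peptide is cut off, oligosaccharyltransferase attaches a glycan, and chaperones and disulfide isomerases fold the chain before p24 proteins help load it into transport vesicles. In fibroblasts this path carries the collagens and fibronectin of the extracellular matrix. The particle's subunits are made on free ribosomes and are not inserted into the ER, whereas nearly all other members are membrane or lumenal proteins of the ER or early secretory pathway.

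The shortest proteins of the set lay at the Ps end of the ratio described below, and 3 of their coding sequences are shown because their whole open reading frames are only 68 to 96 codons long without the stop. They are read 5′ to 3′ from GENCODE M21 on GRCm38, spliced, with the start and stop codons in capitals. Srp9 (particle subunit) lies at chr1:182124737-182132407 on the plus strand, Sec61b (channel β subunit) at chr4:47474658-47483242 on the plus strand and Sec61g (channel γ subunit) at chr11:16500530-16508484 on the minus strand.
Srp9: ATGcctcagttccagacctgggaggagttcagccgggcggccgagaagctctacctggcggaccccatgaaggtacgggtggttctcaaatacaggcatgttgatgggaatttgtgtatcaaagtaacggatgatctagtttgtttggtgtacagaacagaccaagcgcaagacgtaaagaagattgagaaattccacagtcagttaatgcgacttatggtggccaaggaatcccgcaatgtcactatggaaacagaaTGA
Sec61b: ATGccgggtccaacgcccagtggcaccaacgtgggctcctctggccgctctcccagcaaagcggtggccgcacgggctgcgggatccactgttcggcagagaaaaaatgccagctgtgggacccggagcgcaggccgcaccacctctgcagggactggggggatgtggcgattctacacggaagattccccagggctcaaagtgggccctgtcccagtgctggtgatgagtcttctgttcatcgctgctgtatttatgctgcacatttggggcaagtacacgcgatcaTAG
Sec61g: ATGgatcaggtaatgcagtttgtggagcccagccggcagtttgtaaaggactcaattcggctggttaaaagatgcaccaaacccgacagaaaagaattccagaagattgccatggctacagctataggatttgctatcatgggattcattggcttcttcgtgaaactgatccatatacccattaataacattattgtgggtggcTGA

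Many lumenal folding proteins are marked by a retrieval signal at their carboxyl end, which returns escaped protein from the Golgi. The last 27 bases of 6 of their coding sequences are given with the last 4 sense codons in capitals, because these genes carry closely related ends and yet had unlike Ps/CB ratios. They come from GENCODE M21 on GRCm38, written along each gene's own strand. The genes are Hspa5 (chr2:34771970-34777547, plus), Calr (chr8:84841850-84846934, minus), Hsp90b1 (chr10:86690209-86705509, minus), Pdia6 (chr12:17266545-17284770, plus), Pdia4 (chr6:47796141-47813430, minus) and Hyou1 (chr9:44379490-44392369, plus).
Hspa5: gatacatcagaaAAAGATGAGTTGtag
Calr: cctggccaagccAAGGATGAGCTGtag
Hsp90b1: gaatctacagagAAGGATGAATTGtaa
Pdia6: gatgacctggagAAGGATGAGTTGtga
Pdia4: aggagcaggaccAAGGAAGAGCTTtaa
Hyou1: cggccttcaaagAACGATGAACTAtaa

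Promoters are shown because many of these genes are known targets of the unfolded protein response, whose factors bind the ER stress response element. RefSeq promoter windows (GRCm38.p6, 250 bases before to 50 after the start) matched 41 of the 51 genes. The element was searched on both strands as CCAAT, 9 of any base, then CCACG. It was found in 6 of these 41 genes (14.6%), against 37 of 27025 RefSeq genes with windows of the same length (0.137%). A gene counted if any of its windows matched, and the 27025 include genes not listed in these data. The 7 matches are written on the strand that reads CCAAT, with the fixed letters in capitals: Hspa5 at chr2:34772025-34772043 (plus strand), Calr at chr8:84847075-84847093 (minus), Canx at chr11:50325800-50325818 (plus), Dnajc3 at chr14:118937827-118937845 (plus), Pdia6 at chr12:17266491-17266509 (plus), and a pair for Hsp90b1 at chr10:86705533-86705551 (minus) and chr10:86705638-86705656 (plus).
Hspa5: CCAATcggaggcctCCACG
Calr: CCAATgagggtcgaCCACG
Canx: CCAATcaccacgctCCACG
Dnajc3: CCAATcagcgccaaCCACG
Pdia6: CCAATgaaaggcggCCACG
Hsp90b1, nearer the start: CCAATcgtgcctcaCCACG
Hsp90b1, farther from the start: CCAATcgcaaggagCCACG

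The second form, ATTGG, 1 of any base, then CCACG, matched Dnajb11 alone (2.44% of the 41 genes, 0.0444% of all RefSeq genes) at chr16:22857852-22857862 on the plus strand, as ATTGGcCCACG. The letters TGACGTGG of the unfolded protein response element were found in none of the 41 genes and in 0.714% of all RefSeq genes. The CCAAT box alone, which every match of the first element also holds, was found in 28 of 41 genes (68.3%) against 41.1% of all RefSeq genes. A match is a run of letters, and binding was not measured.

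Listed reads ranged from 13466225 to 20296087 per library. The cell type on the labels was checked against markers: 10 of 11 fibroblast markers were listed (Fap was not) and together took 4.21 to 4.45% of reads in siControl CB and 1.95 to 2.25% in siControl Ps, 5.42 to 5.77% in siAPC CB and 2.80 to 2.97% in siAPC Ps. The 2 epithelial markers of 4 that were listed took at most 0.00118%, the only listed immune marker of 4 at most 0.000706%, the only listed muscle marker of 3 at most 0.00139%, and the only listed endothelial marker of 4 fell to 0 in 1 or more siControl Ps libraries. Nuclear RNAs (3 of 5 listed) took 0.0683 to 0.103% in siControl CB and 0.0113 to 0.0281% in Ps, with 0.0468 to 0.0635% and 0.0103 to 0.0236% in siAPC. The 17 mitochondrial RNAs took 1.39 to 1.95% of siControl CB and 2.65 to 4.16% of siControl Ps, and 1.37 to 1.63% and 2.18 to 2.86% in siAPC. Their part in the Ps/CB differences below was not tested. One library per group stood apart by base composition: siControl CB 3 and replicate 2 of each of the other groups. There, GC-rich genes read low against their own group's mean, with Spearman correlations across 10235 genes of -0.539 to -0.66 against -0.037 to 0.542 in the remaining libraries. Some of the results that rest on these 4 libraries are also given without them.

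In siControl cells more genes of the ER machinery were poorer in Ps than were richer there. Of the 51 genes, 26 were lower and 14 higher in Ps at an adjusted p below 0.05 (limma, Benjamini-Hochberg over all listed genes), and 11 passed in neither direction. Over all genes 31.2% were lower and 29.1% higher. The median log2 Ps/CB ratio of the members was -0.25, over a range of -1.10 to 1.25, and that of all genes was 0.00. The excess of lower genes did not extend to the signal recognition particle: 5 of its 6 subunits were higher and none lower (median 0.67), while the other 45 genes had 26 lower and 9 higher (median -0.28). For the particle, scaling to total listed reads gave 4 higher and 1 lower. A correction for GC content and length gave it 3 higher and none lower (median 0.19). Under the study's rule, a fold above 2 with an unadjusted p below 0.05, 1 member was Ps-enriched (Sec61g) against 7.19% of all genes, and 2 were CB-enriched (Hyou1 and Pdia4) against 6.82%. Total scaling gave 0 Ps-enriched and 9 CB-enriched members, and the GC content and length correction 0 and 2, with Stt3a in place of Hyou1. Hyou1 was not CB-enriched under quantile scaling or without siControl Ps 1 either. Scaling to total listed reads gave 7 higher and 33 lower of the 51, and a loess correction for GC content and length gave 9 and 30 (median -0.36). Without the 4 libraries set apart by base composition, 15 were higher and 30 lower. Total scaling moves the median of all genes by -0.30, and relative to that median the members stayed at -0.25.

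**Figure D1:**
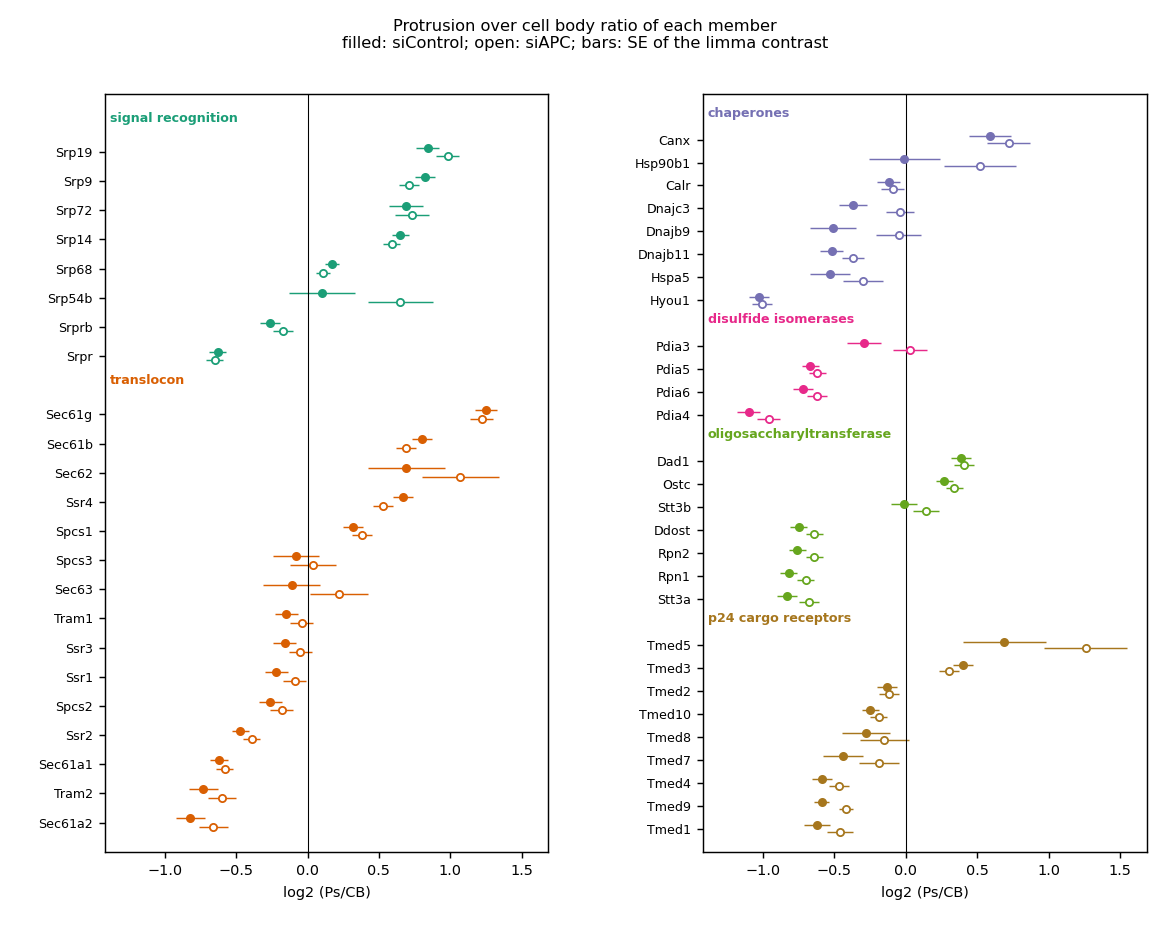
Log2 Ps/CB ratio of each of the 51 genes by role, with filled points for siControl, open points for siAPC and bars for SE of the limma contrast. Points right of 0 are higher in Ps. Among the roles, disulfide isomerases and oligosaccharyltransferase subunits lie lowest in siControl (medians -0.69 and -0.75) and signal recognition genes highest (0.41).

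Signal recognition split into the cytosolic particle and its receptor. Srp9, which with Srp14 forms the domain that slows elongation, read 4.51, 4.60, 4.43 and 4.57 log2 CPM (library-size scaled counts) in the 4 siControl CB libraries and 5.47, 5.39, 5.23 and 5.30 in Ps. Every Ps library lay above every CB library, a 1.77-fold difference (log2 0.82, SE 0.07, adjusted p = 1.82e-08). How many of all genes were likewise without overlap was not counted, here or for the genes below. In siAPC the ratio of Srp9 was 0.71. Srp14 (chr2:118475850-118479711) read 7.27, 7.29, 6.99 and 7.23 in CB and 7.92, 7.88, 7.79 and 7.77 in Ps, again without overlap (log2 0.65, SE 0.06, adjusted p = 6.37e-08). Srp19, which prepares the particle's RNA for binding by the signal-binding subunit, rose from 4.0, 4.05, 4.01 and 3.95 to 5.00, 4.86, 4.71 and 4.81 (log2 0.84, SE 0.08, adjusted p = 5.33e-08). Srp72 (chr5:76974683-76999937), a large scaffold subunit of 671 codons, rose from 6.16, 6.08, 6.61 and 6.26 to 7.04, 7.16, 6.79 and 6.86 (log2 0.69, SE 0.12, adjusted p = 6.92e-05). Its partner Srp68 rose least among the subunits that passed (log2 0.17, SE 0.05, adjusted p = 0.00333), and its ratio was -0.12 under total scaling. Srp54b, a copy of the signal-binding subunit, had as few as 17 reads in a library, shared 99.8% of its 50-base stretches with other genes and gave 0.10 (SE 0.23, adjusted p = 0.734), so its value is uncertain.

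The receptor subunits moved the other way. Srpr, the α subunit (chr9:35200175-35247973), read 7.65, 7.61, 7.47 and 7.65 in siControl CB and 6.88, 6.97, 7.04 and 6.94 in Ps. The groups stood apart, with Ps at 64.4% of CB (log2 -0.63, SE 0.06, adjusted p = 2.07e-08). Srprb, the membrane-anchored β subunit, was lower by less (log2 -0.26, adjusted p = 0.00315). In siAPC the ratios were -0.65 for Srpr and -0.17 for Srprb, the latter 0.08 under a correction for GC content and length. The same correction brought the median ratio of the particle subunits, relative to all genes, from 0.67 to 0.14 with 3 of 6 higher. Under that correction Srp14 was at -0.01.

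The Sec61 channel did not move as 1 unit. Sec61g, its smallest subunit, read 7.26, 7.36, 7.05 and 7.27 in siControl CB and 8.65, 8.63, 8.31 and 8.36 in Ps. All Ps libraries exceeded all CB libraries, and the 2.38-fold difference was the largest among the members (log2 1.25, SE 0.08, adjusted p = 3.35e-10). Sec61b read 6.95, 7.03, 6.79 and 6.99 in CB and 7.90, 7.58, 7.75 and 7.72 in Ps (log2 0.80, SE 0.07, adjusted p = 7.34e-09). The pore-forming α subunit Sec61a1 (chr6:88503579-88518905) went the opposite way, from 9.28, 9.30, 9.13 and 9.35 in CB to 8.64, 8.58, 8.67 and 8.67 in Ps (log2 -0.62, SE 0.06, adjusted p = 2.08e-08). The α isoform Sec61a2 was lower too (log2 -0.82, SE 0.10, adjusted p = 1.21e-06). These opposite signs held in siAPC, where the ratios were 1.22 for Sec61g, 0.69 for Sec61b, -0.58 for Sec61a1 and -0.66 for Sec61a2. Some of these genes share sequence with others: 33.8% of the 50-base stretches of Sec61b occur in Gm10320, 20.5% of those of Sec61g in Gm10177 and 15.5% of those of Srp9 in Gm13736. Exons of Sec61a2 overlap Nudt5 on the opposite strand over 19.9% of their bases, and whether counting used the strand is not given in the sources used here.

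Of the 15 translocon genes, 5 were higher, 6 lower and 4 passed in neither direction (median -0.15). Among all genes the shares were 29.1% higher and 31.2% lower, so these counts lie near the background. Total scaling gave 3 higher and 8 lower, and the GC content and length correction 3 and 9. Ssr4, the δ subunit of the translocon-associated complex (chrX:73787028-73790830), read 7.58, 7.64, 7.33 and 7.59 in CB and 8.44, 8.19, 8.14 and 8.07 in Ps (log2 0.67, SE 0.07, adjusted p = 2.20e-07). Its partner Ssr2 fell (log2 -0.47, adjusted p = 6.68e-07), as did Ssr1 by less (log2 -0.22, adjusted p = 0.0255, not passed without siControl CB 4, Ps 1 or Ps 3), while Ssr3 gave -0.16 (adjusted p = 0.0808). Thus subunits of 1 complex lay on both sides. Signal peptidase did likewise, with Spcs1 at 0.32 (adjusted p = 0.00118, but -0.58 after correction for GC content and length), Spcs2 at -0.26 (adjusted p = 0.00741) and the glycoprotein subunit Spcs3 at -0.08, not called. Tram2, a translocon-associated protein, fell to 60.1% of CB (log2 -0.73, adjusted p = 3.60e-06), whereas its relative Tram1 gave -0.15 (adjusted p = 0.126).

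Sec62 and Sec63 form the complex used for entry after translation is complete. Sec62 (chr3:30792875-30821263) read 3.44, 3.40, 4.58 and 3.44 in siControl CB and 4.44, 5.02, 4.13 and 4.05 in Ps. The CB library that stands at 4.58 is one of the 4 with a GC trend, and it lies inside the Ps range (log2 0.69, SE 0.27, adjusted p = 0.0338). The Sec62 call did not pass without siControl CB 1, CB 2, CB 4, Ps 1 or Ps 2 (0.49 to 0.68). Without those 4 libraries the Sec62 ratio was 0.78 in siControl and 1.06 in siAPC, against 1.07 in siAPC with all (adjusted p = 0.00219). Sec63 gave -0.11 in siControl and 0.22 in siAPC, neither called.

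**Figure D2:**
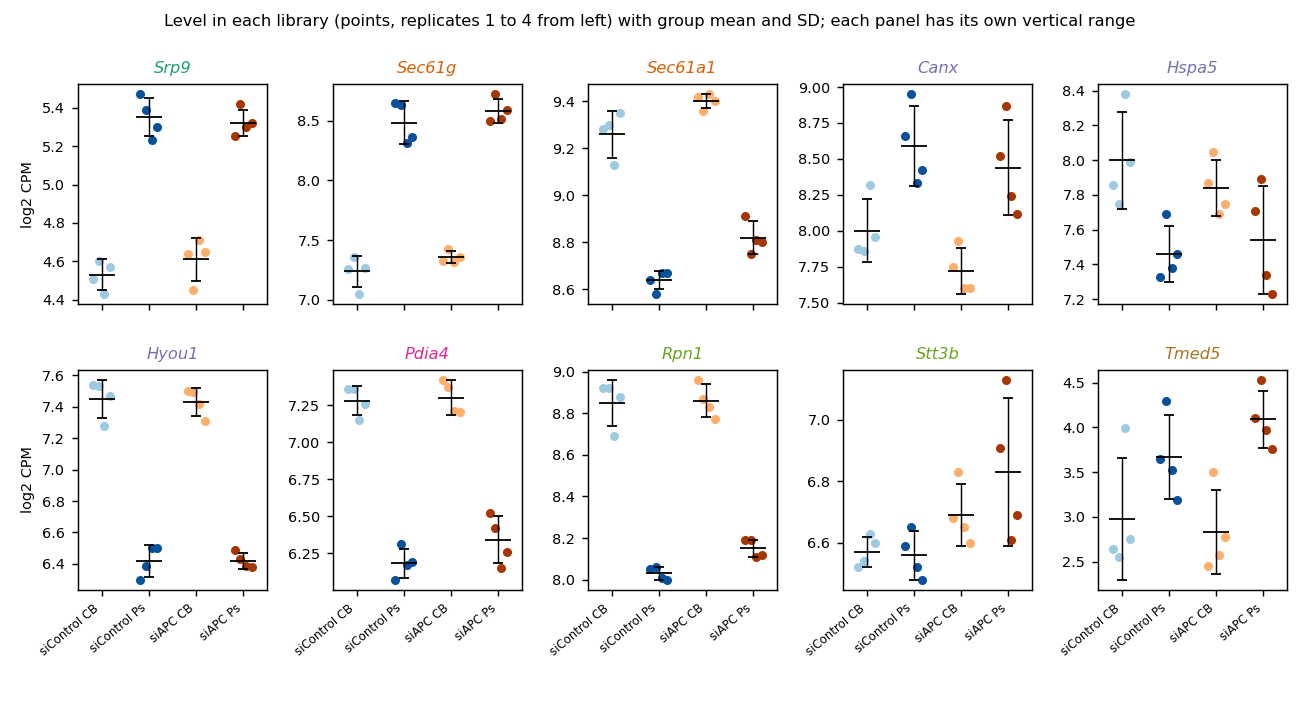
Log2 CPM of selected members in each of the 16 libraries, 4 per group, with the group mean and SD in black and a vertical range of its own in each panel. For Sec61g the Ps points lie above all CB points, for Hyou1 below them, and for Tmed5 the siControl CB 3 library stands at 3.99 against 2.55 to 2.75 in the other 3.

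Chaperones were mostly lower in siControl Ps, with 5 of 8 lower (62.5%), 1 higher (12.5%) and a median of -0.44. The shares of all genes were 31.2% lower and 29.1% higher. Hyou1, a large lumenal Hsp70 relative, read 7.54, 7.53, 7.28 and 7.47 in CB and 6.30, 6.39, 6.50 and 6.50 in Ps. The gap between the groups was clear, and Ps held 48.9% of the CB level (log2 -1.03, SE 0.07, adjusted p = 2.98e-10). Hspa5, the BiP chaperone that binds nascent chains, read 7.86, 7.75, 8.38 and 7.99 in CB and 7.33, 7.69, 7.38 and 7.46 in Ps, close but without overlap (log2 -0.53, SE 0.14, adjusted p = 0.00295). In siAPC the ratio of Hspa5 was -0.30 (adjusted p = 0.0728, or 0.0271 with a replicate block), and without the GC-trend libraries it was -0.48 in siControl and -0.34 in siAPC. Its co-chaperones fell with it, Dnajb11 by 0.52 (adjusted p = 2.41e-05), Dnajb9 by 0.51 (adjusted p = 0.00816) and Dnajc3 by 0.37 (adjusted p = 0.00513). Canx, the membrane-bound lectin chaperone (chr11:50293961-50325673), was the only one to rise, from 7.87, 7.86, 8.32 and 7.96 to 8.66, 8.95, 8.33 and 8.42 (log2 0.59, SE 0.15, adjusted p = 0.00251). The highest CB library, 8.32, and the lowest Ps library, 8.33, nearly met. Under total scaling Canx did not pass (0.29), and the chaperones had 6 lower and none higher. Calr, its soluble counterpart, had the highest level of all members per kilobase of transcript (log2 9.25 in CB and 9.13 in Ps) and a log2 ratio of -0.12 (adjusted p = 0.207).

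Hsp90b1, the lumenal Hsp90, read 6.08, 6.04, 7.32 and 6.19 in siControl CB and 6.37, 6.89, 6.12 and 6.20 in Ps, so the groups overlapped and the ratio was -0.01 (SE 0.25). The ratio was 0.29 without siControl CB 3 and -0.18 without siControl Ps 2, neither called. Without the 4 GC-trend libraries it was 0.13 in siControl and 0.53 in siAPC, and only the siAPC value then passed the test. In siAPC it read 6.05, 6.65, 5.79 and 6.04 in CB and 6.73, 7.14, 6.40 and 6.34 in Ps, with overlap (log2 0.52, adjusted p = 0.0812, or 0.0437 with a replicate block). Each Ps library was nonetheless above the CB library of its number. Exons of Hsp90b1 overlap 1810014B01Rik on the opposite strand over 10.3% of their bases.

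All 4 disulfide isomerases were lower in siControl Ps, as were 31.2% of all genes. Pdia4 read 7.36, 7.36, 7.15 and 7.26 in CB and 6.07, 6.31, 6.17 and 6.19 in Ps, the lowest ratio of any member, with Ps at 46.6% of CB (log2 -1.10, SE 0.08, adjusted p = 1.40e-09). Pdia6 (log2 -0.72) and Pdia5 (log2 -0.67) also fell without overlap between the groups. Pdia3, the isomerase that works with calnexin and calreticulin on glycoproteins, lay at the threshold: it read 8.30, 8.24, 8.60 and 8.41 in CB and 8.09, 8.41, 7.95 and 7.96 in Ps, with overlap (log2 -0.29, adjusted p = 0.0493). That call was lost under 12 of the alternatives tried, 11 of which left out 1 library (any of the siControl libraries but CB 2 and Ps 2, or siAPC CB 1, CB 3, CB 4, Ps 1 or Ps 3, with Pdia3 at -0.31 to -0.21). By the coding ends printed above, Hspa5, Calr, Hsp90b1 and Pdia6 encode the same last 4 residues and Pdia4 and Hyou1 variants of them. The ratios were -0.72 (Pdia6), -0.53 (Hspa5), -0.12 (Calr) and -0.01 (Hsp90b1) among the former, and -1.10 (Pdia4) and -1.03 (Hyou1) among the latter. Pdia3 (-0.29) and Pdia5 (-0.67), whose ends are not printed, also encode variants. With them, the variants overlap the former genes in ratio.

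Subunits of oligosaccharyltransferase, the complex that transfers the glycan, lay on both sides, with 4 of 7 lower and 2 higher, or 5 lower and none higher under total scaling and 5 and 1 after the GC content and length correction. As reported, 57.1% were lower and 28.6% higher, against 31.2% and 29.1% of all genes. Stt3a, the catalytic subunit that works beside the channel (chr9:36729344-36767679), read 8.01, 8.06, 7.88 and 8.04 in siControl CB and 7.11, 7.32, 7.09 and 7.13 in Ps (log2 -0.83, SE 0.07, adjusted p = 7.26e-09). Rpn1 (chr6:88084482-88105304) went from 8.92, 8.92, 8.69 and 8.88 to 8.05, 8.06, 8.01 and 8.0 (log2 -0.82, adjusted p = 9.85e-10). Rpn2 (log2 -0.76) and Ddost (log2 -0.75) fell nearly as far. None of these 4 genes had overlapping groups, and the share of all genes without overlap was not counted. The small subunits Dad1 (log2 0.39, adjusted p = 4.97e-05) and Ostc (log2 0.27, adjusted p = 0.00151) were higher in Ps, although under total scaling Dad1 did not pass (0.09) and Ostc was at -0.03, and Ostc was at -0.36 after correction for GC content and length. Stt3b, the alternative catalytic subunit (chr9:115242581-115310421), read 6.52, 6.54, 6.63 and 6.60 in CB and 6.59, 6.65, 6.52 and 6.48 in Ps. Its groups overlapped and its ratio was -0.01 (SE 0.09, adjusted p = 0.916). The paired catalytic subunits were thus unlike in size of ratio, a difference that was not tested.

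Among the p24 cargo receptors, grouped by the Tmed name alone, 5 of 9 were lower (55.6%), 1 was higher (11.1%) and 3 passed in neither direction (median -0.28). Over all genes 31.2% were lower and 29.1% higher. Tmed1 (log2 -0.62), Tmed4 (log2 -0.59), Tmed9 (log2 -0.59), Tmed7 (log2 -0.44) and Tmed10 (log2 -0.25) were lower. Tmed3 (chr9:89699206-89705068) was the 1 higher gene, from 7.01, 6.96, 6.72 and 6.96 in CB to 7.43, 7.32, 7.25 and 7.23 in Ps (log2 0.40, SE 0.07, adjusted p = 3.68e-05). Under total scaling Tmed3 did not pass (0.10), and the family had 7 lower and none higher. With Tmed5 as the second, 2 were higher under quantile scaling. Tmed5 (chr5:108106366-108132620) read 2.64, 2.55, 3.99 and 2.75 in siControl CB and 3.65, 4.30, 3.52 and 3.19 in Ps. The siControl CB 3 library stood above the others of its group (log2 0.69, SE 0.29, adjusted p = 0.0508). For Tmed5 the ratio was 1.02 without that library and 0.81 without the 4 GC-trend libraries, and both passed. Exons of Tmed1 overlap Dnm2 on the opposite strand over 13.6% of their bases, and 32.4% of the 50-base stretches of Tmed10 also occur in its pseudogene.

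Higher ratios went with short coding sequences within the set, as they did among protein-coding genes at large. The short members lay near the shares of other genes of their length. Classes of length were set after the values were seen. Of 12 members with up to 200 codons, 9 were higher in siControl Ps (75.0%), against 71.6% of 1350 protein-coding genes of that length with a mean log2 of at least 1. Of 17 members with 201 to 400 codons, 11 were lower (64.7%), against 28.8% of 2853 genes. Of 22 members with more than 400 codons, 14 were lower (63.6%), against 47.2% of 5602 genes. In siAPC those lower were 47.1% against 27.7% in the middle class and 11 of 22 against 48.9% in the long class, and 75.0% of the short members were higher, against 71.5%. Median ratios in siControl were 0.52 against 0.49 in the short class, -0.26 against 0.05 in the middle and -0.58 against -0.22 in the long. In siAPC they were 0.47 against 0.45, -0.17 against 0.04 and -0.44 against -0.23. No test of these classes was made. The Spearman correlation of ratio with coding length was -0.49 over the 51 members and -0.38 over 9805 coding genes, and with GC content -0.36 and -0.39. The points share libraries and base composition, and these values are descriptions.

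**Figure D3:**
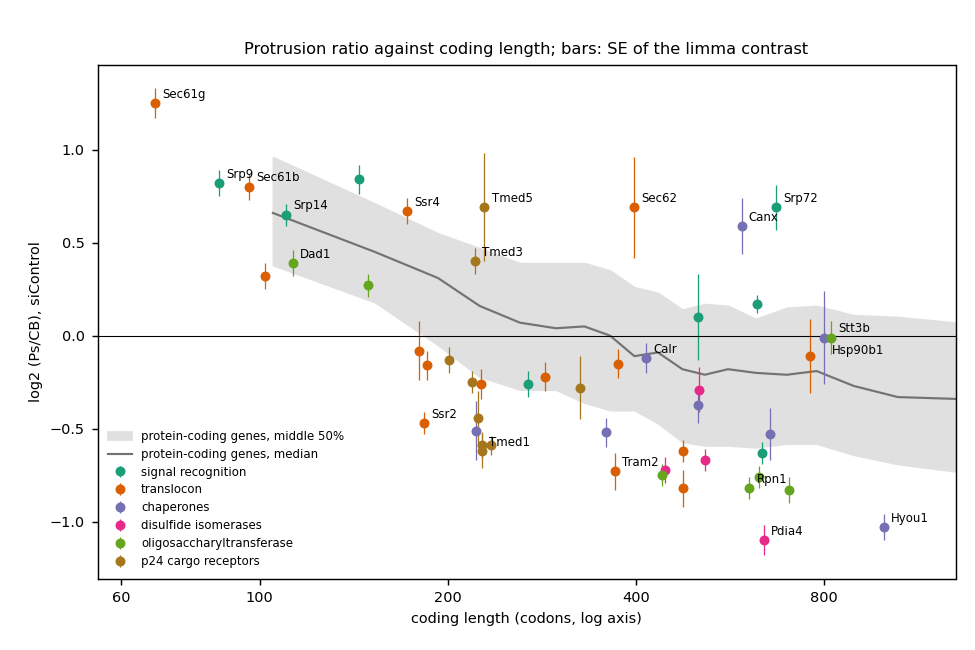
Log2 Ps/CB ratio in siControl cells against coding length in codons (log axis) for the 51 members, coloured by role with bars for SE, over the median (line) and middle 50% (grey band) of protein-coding genes by length. Members with up to 200 codons lie mostly above 0, and those with more than 400 mostly below.

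In siAPC cells, of the members 20 were lower (30.9% of all genes), 16 higher (29.8% of all genes) and 15 passed in neither direction, with a median of -0.09 (all genes 0.01). That median was -0.03 without siAPC Ps 3, without siAPC Ps 4 or under quantile scaling, and -0.28 after the GC content and length correction. By role, the particle subunits were higher in 6 of 6 (median 0.68, and 3 of 6 at 0.26 after the GC content and length correction), disulfide isomerases lower in 3 of 4 (median -0.62), and oligosaccharyltransferase lower in 4 of 7 (median -0.64). Of the 6 particle subunits, 5 were higher under a replicate block and 4 under total scaling. Chaperones had 2 lower and 1 higher (median -0.07), with 3 lower and 2 higher under a replicate block, 4 and 1 under total scaling and 5 and 1 after the GC content and length correction (median -0.28). Under the study's rule 3 members were Ps-enriched (Sec61g, Sec62 and Tmed5) against 7.67% of all genes, and 1 CB-enriched (Hyou1) against 5.05%. Sec62 was not Ps-enriched without siAPC CB 3 or siAPC Ps 2, or under total scaling, and none of the 3 was after the GC content and length correction. The split of all members under the GC content and length correction was 10 higher and 28 lower.

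Among single genes, Sec61g read 7.33, 7.43, 7.32 and 7.36 in siAPC CB and 8.50, 8.72, 8.51 and 8.59 in siAPC Ps, which was 2.33-fold higher (adjusted p = 7.88e-10). Hyou1 read 7.5, 7.49, 7.42 and 7.31 in CB and 6.49, 6.43, 6.39 and 6.38 in Ps, at 49.8% of CB. That value lies just past the fold of 2, and the gene was not CB-enriched without siAPC CB 1, CB 2, Ps 3 or Ps 4, without the 4 GC-trend libraries, under quantile scaling or after the GC content and length correction. Tmed5 read 2.45, 3.5, 2.58 and 2.78 in CB and 4.11, 4.53, 3.97 and 3.76 in Ps, now without overlap (log2 1.26, adjusted p = 0.00108). Sec62 was apart as well, at 3.58, 4.02, 3.05 and 3.35 in CB and 4.65, 5.11, 4.34 and 4.18 in Ps. Srp54b rose from 0.24, 0.49, -0.15 and 0.36 to 0.81, 1.17, 0.77 and 0.79 (log2 0.65, adjusted p = 0.0211), but did not pass without siAPC CB 3 (0.53) or siAPC Ps 2 (0.56). Srp68 (log2 0.11, adjusted p = 0.0448) had an adjusted p of 0.0642 with a replicate block. Dnajb9 read 3.33, 3.47, 2.76 and 2.98 in CB and 3.35, 3.22, 2.81 and 2.96 in Ps, with full overlap (log2 -0.05, adjusted p = 0.791).

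The change in ratio was tested directly, as the difference between the siAPC and siControl ratios. No member passed, higher or lower, at an adjusted p below 0.05, where over all genes 0% were higher and 0.0231% lower. At an unadjusted p below 0.05, 2 members were higher and none lower, Dnajc3 (log2 0.33, SE 0.15) and Tmed9 (log2 0.17, SE 0.08), against 2.07% and 1.71% of all genes. All adjusted p were at least 0.981. The differences leaned 1 way: 43 of 51 were above 0 (84.3%), against 51.1% of all genes, with a median of 0.12 against 0.00. Total scaling moves the all-gene median by 0.15, and the members stayed 0.12 above it. The members' median was 0.07 without siAPC Ps 2 and 0.07 after the GC content and length correction. The largest differences were those of Tmed5 (0.58), Srp54b (0.55), Hsp90b1 (0.53), Dnajb9 (0.46, SE 0.22) and Sec62 (0.38), and the lowest were those of Ssr4 (-0.15) and Srp9 (-0.11). Without siControl CB 3 they were 0.24 for Tmed5, 0.34 for Srp54b, 0.23 for Hsp90b1, 0.45 for Dnajb9 and 0.09 for Sec62. Chaperones were above 0 in 8 of 8 (median 0.19), oligosaccharyltransferase subunits in 7 of 7 (median 0.12) and signal recognition genes in 4 of 8 (median 0.01). Genes share libraries, so these counts carry no p.

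**Figure D4:**
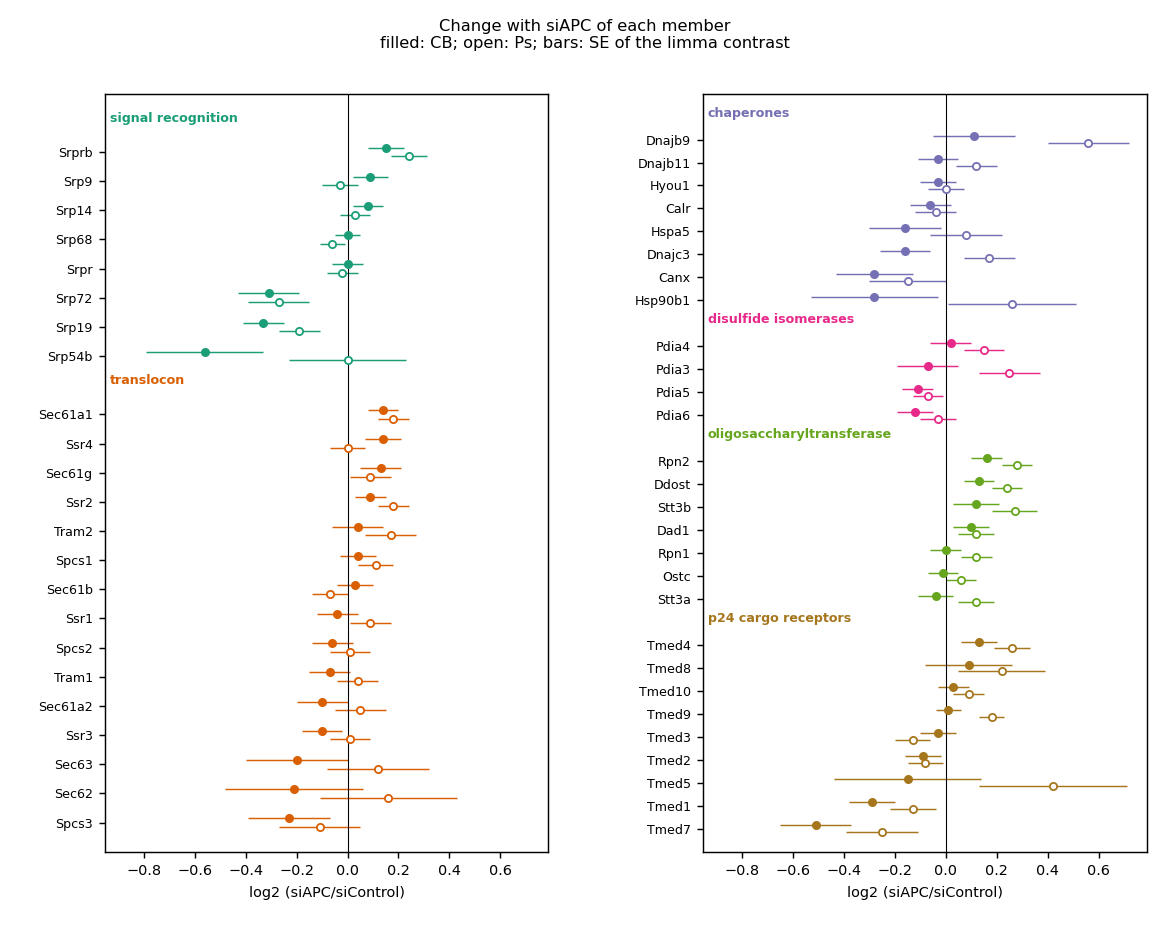
Log2 change with siAPC in CB and in Ps for each member, by role. The x axis is log2 siAPC over siControl, filled points are CB, open points are Ps and bars are SE of the limma contrast. All 7 oligosaccharyltransferase subunits lie above 0 in Ps, and Tmed7 and Srp19 lie below 0 in CB.

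Levels with siAPC were also compared with siControl within each fraction. In CB none was higher (7.52% of all genes) and 3 were lower (5.87%), Tmed7 (log2 -0.51, adjusted p = 0.0168), Srp19 (log2 -0.33, adjusted p = 0.012) and Tmed1 (log2 -0.29, adjusted p = 0.0347). Each was lost under at least 1 alternative, and none of the 3 passed without siAPC CB 3. In Ps 9 were higher (10.7% of all genes) and none lower (11.2%), with a median of 0.09 against -0.02 for all genes. Of the 51 members, 34 were above 0 (66.7%), against 46.1% of all genes. The median was 0.01 without siAPC Ps 2, 0.04 without siControl Ps 3, 0.05 without siAPC Ps 1 or siControl Ps 4, and 0.05 after the GC content and length correction. With total scaling 22 were higher, with the GC content and length correction 5 were higher and 5 lower, and without siAPC Ps 1 the count of higher genes was 4. Total scaling moves the median of all genes to 0.14, and the members stayed 0.11 above it. Rpn2, Ddost and Tmed4 passed in every alternative. The siRNA contrasts share control libraries with the ratios above.

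Oligosaccharyltransferase gave 3 of the 9 genes that were higher in siAPC Ps. Rpn2 (chr2:157279017-157326319) read 8.58, 8.59, 8.50 and 8.47 in siControl Ps and 8.89, 8.82, 8.78 and 8.78 in siAPC Ps. The groups were apart by a 1.22-fold difference (log2 0.28, SE 0.06, adjusted p = 0.00241). Ddost (chr4:138304730-138312628) read 7.71, 7.67, 7.62 and 7.59 against 7.95, 7.87, 7.85 and 7.88 (log2 0.24, SE 0.06, adjusted p = 0.00977). Stt3b read 6.59, 6.65, 6.52 and 6.48 against 6.91, 7.13, 6.61 and 6.69, with overlap (log2 0.27, SE 0.09, adjusted p = 0.0313). Other members of the complex lay above 0 as well, 7 of 7 in total, where 46.1% of all genes did. In CB the complex's median change was 0.10, none called.

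The other 6 came from several roles. Dnajb9, a co-chaperone of Hspa5 (chr12:44205559-44210326), read 2.50, 2.82, 2.44 and 2.31 in siControl Ps and 3.35, 3.22, 2.81 and 2.96 in siAPC Ps, with a small overlap (log2 0.56, SE 0.16, adjusted p = 0.0131). It had as few as 70 reads in a library and did not pass without siAPC Ps 1 (0.48). Tmed4 (log2 0.26, adjusted p = 0.00886), Tmed9 (log2 0.18, adjusted p = 0.022), Srprb (log2 0.24, adjusted p = 0.0184), Sec61a1 (log2 0.18, adjusted p = 0.0315) and Ssr2 (log2 0.18, adjusted p = 0.0256) were the rest, each a rise of at most 1.19-fold.

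Other genes of the ER and its traffic were read from fixed lists, chosen with earlier results of these data known. Over all genes 31.2% were lower and 29.1% higher in siControl Ps. There, 12 of 19 unfolded protein response genes were lower in Ps and 1 higher (median -0.49), with the sensors Ern1 (log2 -1.40) and Eif2ak3 (log2 -1.16) lowest and Ddit3, a stress-induced factor, higher (log2 0.39). Of 19 measured ER-associated degradation genes, which retrotranslocate misfolded proteins, 13 were lower and 2 higher (median -0.47), led by the ubiquitin ligase Syvn1 (log2 -1.48) and its partner Sel1l (log2 -1.07). Among 34 other folding enzymes 18 were lower and 3 higher (median -0.25). The sulfhydryl oxidase Qsox1 (log2 -1.18) and the collagen chaperone Serpinh1 (log2 -0.73) were lower. Those higher were Sdf2 (log2 0.31), Sep15 (log2 0.26) and the cyclophilin Ppib (log2 0.25). Among 32 other glycosylation genes 19 were lower and 5 higher (median -0.55), with the mannosyltransferase Alg1 at -1.29 and the glucosidase Mogs at -1.18. The small oligosaccharyltransferase subunits Krtcap2 (0.76) and Tmem258 (0.68) rose, as did Nus1 (0.71). Of the subunits Tusc3 and Magt1 on this list, Tusc3 was lower (-0.50) and Magt1 was not called (0.36). Total scaling gave 14 lower and none higher for the unfolded protein response, 15 and none for degradation, 30 and none for folding, and 24 lower and 4 higher for glycosylation. That scaling moves the median of all genes to -0.30. Relative to it the list medians were -0.49, -0.47, -0.25 and -0.55, as under the deposited scaling.

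Genes of the vesicle coats lay on both sides. COPII genes, which carry cargo out of the ER, had 12 of 24 lower and 6 higher (median -0.22), whereas COPI genes, which return it, had 8 of 15 higher and 3 lower (median 0.31), with Copb1 at 0.64 and Copz2 at 0.57. Under total scaling COPII had 1 higher and 17 lower, and COPI 3 higher and 7 lower with a median of 0.01. Relative to the median of all genes, COPI stayed at 0.31 and COPII at -0.21. Membrane insertion genes had 7 of 18 lower and 4 higher (median 0.02), close to the shares of all genes, and 1 higher and 11 lower under total scaling or 6 and 6 under quantile scaling, with Emc1 at -1.19 and Emc2 at 1.66 in the same complex. ER shape genes had 7 of 14 lower and 2 higher (median -0.24), or 10 lower and none higher under total scaling, with the sheet protein Ckap4 at -0.94. No test compared the lists. With siAPC in Ps, where 10.7% of all genes were higher and 11.2% lower, 4 unfolded protein response genes of 19 were higher and none lower, among them Herpud1 (0.52) and Ddit3 (0.42), and 7 of 34 other folding enzymes were higher and 3 lower, among them P4hb (0.44) and Fkbp11 (-0.32). Total scaling gave 11 higher and none lower for the former list and 16 higher and none lower for the latter. That scaling moves the median of all genes in this comparison from -0.02 to 0.14. Relative to it the medians of these lists stayed at 0.14 and 0.10. The shares of all genes called under total scaling are not given here. COPI genes had 2 higher and 5 lower of 15, COPII 2 and 3 of 24, other glycosylation 2 and 4 of 32, membrane insertion 2 and 1 of 18, ER shape 2 and 1 of 14, and degradation 1 and none of 19. Under total scaling these were 4 and 2, 8 and 0, 10 and 0, 7 and 0, 4 and 1, and 9 and 0.

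**Figure D5:**
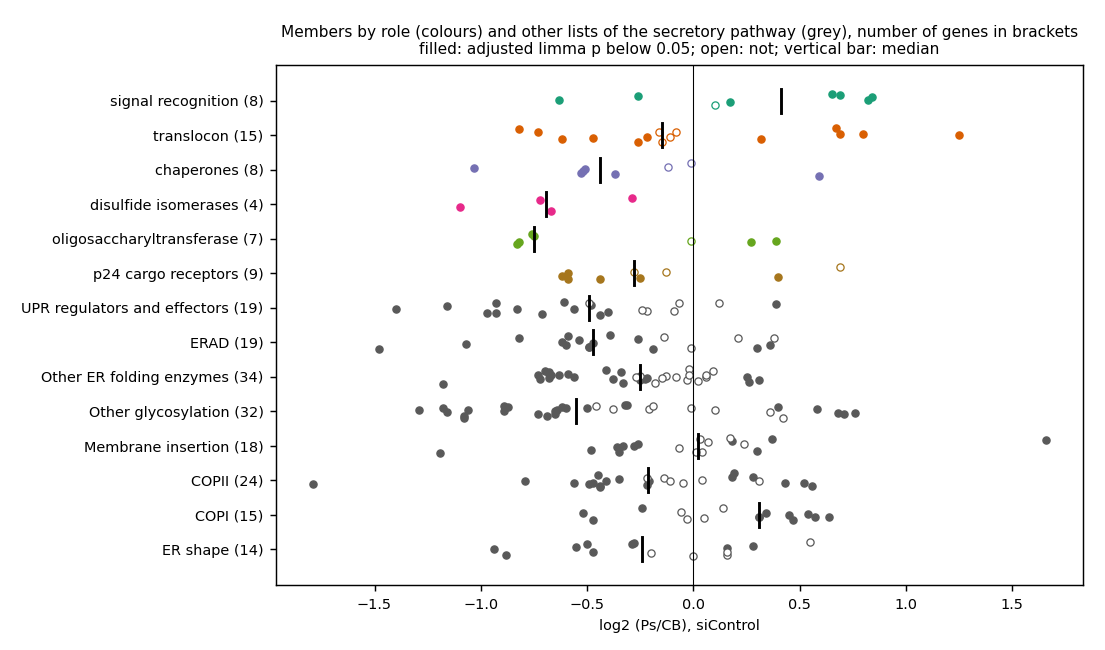
Log2 Ps/CB ratio in siControl cells of each gene, for the members by role (coloured) and 8 related lists (grey). Filled points passed at an adjusted p below 0.05, open ones did not, and vertical bars are medians. COPI genes have more higher (8 of 15) than lower (3) under the deposited scaling, and the other 7 lists have more lower than higher.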

How the data were processed

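RNA of Ps and CB fractions was sequenced from a stranded mRNA kit as paired reads. Per the submitters' processing notes and the study's methods, the authors used bcl2fastq 1.8.4, STAR 2.4.2a, GENCODE release 4 on mm10, Rsubread and limma 3.26.1. The deposited values are log2 CPM (scaled read counts) from voom. All 208240 values inverted to whole reads (100%, tolerance 0.01 reads), giving 13466225 to 20296087 listed reads per library. No column lay outside the 16 samples. The table held no voom weights, so limma 3.58.1 (R 4.3.3) was fitted to all 16 libraries with group means, an intensity trend, and Benjamini-Hochberg adjustment over 13015 genes.

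Groups came from the titles. The study calls the 4 replicates independent, the labels do not say how, and p-values measure the spread between these libraries. Same-numbered libraries deviated together in every pair for CB with Ps in siAPC (mean r 0.502, lowest 0.416) and for Ps across siRNAs (0.345, lowest 0.162), so the numbers pair those samples by the data. They did not for CB with Ps in siControl (0.132, lowest -0.121) or CB across siRNAs (-0.034).

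The members and lists were chosen with earlier results of these data known. Genes named were the 5 highest and 5 lowest members per comparison with a mean log2 of at least 1, anchor genes of each machine, the 3 highest and 3 lowest of each list, and Apc. Others were named after their values were seen. Alternatives were a replicate block, total and quantile scaling, voom weights, a prior count of 2, a mean log2 of at least 1, leaving out the 4 GC-trend libraries or each library in turn, loess on GC content and length, and fits to 8 libraries. The model was checked on data with known changes. Symbols were matched to GENCODE M21 (GRCm38) for 98.9% of genes. Coordinates and coding sequences come from it, and promoters from RefSeq.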

Additional observations from a re-analysis of the deposited data

Results flagged for a closer look

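A library was singled out where its gap to the nearest of the other 3 in its group exceeded Dixon's limit on the range. This happened in 11 of 204 groups (5.39%), where chance gives about 1 in 20, and 8 of the 11 were in the 4 GC-trend libraries. In siControl CB 3, Hsp90b1 read 7.32 (others 6.04 to 6.19), Sec62 4.58 (3.40 to 3.44) and Tmed5 3.99 (2.55 to 2.75), while Rpn2 read 9.11 (9.35 to 9.37), Tmed4 5.92 (6.16 to 6.17) and Pdia5 6.46 (6.67 to 6.71). In siControl Ps 2, Spcs2 read 7.07 (6.84 to 6.88), and in siAPC Ps 2, Srp54b read 1.17 (0.77 to 0.81). The remaining 3 were Sec61a2 in siControl CB 2 at 4.90 (5.16 to 5.20), Ssr2 in siAPC Ps 1 at 7.08 (7.02 in the others) and Pdia5 in siAPC CB 1 at 6.59 (6.49 to 6.50). No member passed the test of a difference in ratio between the siRNA groups.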

How the results depend on the processing

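The members' median ratio lay below that of all genes by 0.25 in siControl and 0.10 in siAPC. In siAPC the gap shrank to less than the spread between pairs (SD 0.07) under quantile scaling, without siAPC Ps 3 and without siAPC Ps 4. With loess the difference from all genes widened, to -0.41 in siControl and -0.32 in siAPC. Of the 40 siControl calls 30 held in all alternatives tried, and of the 36 siAPC calls 28. Of those within a fraction, none of 3 in CB and 3 of 9 in Ps held. Members higher in siControl Ps numbered 7 with total scaling and 9 with loess (14 as reported), and in siAPC 10 with loess (16). With siAPC in CB, 4 were higher with total scaling (0), 5 lower with loess (3), and 0 to 4 lower on leaving out 1 library (0 without siAPC CB 3, 1 without siAPC CB 4). With siAPC in Ps, 22 were higher with total scaling, 5 with loess and 5 with 8 libraries (9), and 4 to 9 on leaving out 1 library (4 without siAPC Ps 1), while 2 were lower without the GC-trend libraries, 5 with loess and 0 to 2 on leaving out 1 library (2 without siAPC Ps 2). The cause was not tested.

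Ps-enriched members in siControl numbered 0 with total scaling, 0 with loess, 10 at a fold of 1.5, and 1 to 2 on leaving out 1 library (2 without siControl CB 3). CB-enriched members in siControl numbered 9 with total scaling, 1 with quantile scaling, 15 at a fold of 1.5, and 1 to 2 without 1 library (1 without siControl Ps 1). In siAPC, Ps-enriched members numbered 2 with total scaling, 0 with loess, 10 at a fold of 1.5, and 2 to 4 without 1 library (2 without siAPC CB 3 or Ps 2). CB-enriched members in siAPC numbered 2 with total scaling, 0 with quantile scaling, 0 without the GC-trend libraries, 2 with loess, 11 at a fold of 1.5, and 0 to 2 without 1 library (0 without siAPC CB 1, CB 2, Ps 3 or Ps 4, and 2 without siAPC Ps 1).

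With loess the siControl ratio was reversed for Srp14 (-0.01), Ostc (-0.36) and Spcs1 (-0.58), and with total scaling for Ostc (-0.03) and Srp68 (-0.12). In siAPC loess reversed Srp14 (-0.04), Ostc (-0.31), Spcs1 (-0.51), Spcs3 (-0.52) and Srprb (0.08), and total scaling Srp68 (-0.04). Total scaling put Ssr4 at 0.16 with siAPC in Ps. With the replicate block, 15 members were higher and 27 lower in siControl, 16 and 21 in siAPC, and 9 were higher in Ps with siAPC. The block changed the calls given for Hspa5, Hsp90b1 and Srp68 in siAPC, and no call in the Ps comparison of siRNAs. Where the numbers do not pair the samples, it gave calls for Ssr3 (adjusted p = 0.0294) and Tmed5 (0.0253) in siControl and Srp72 with siAPC in CB (0.0434). Depth limits Srp54b (17 reads at the lowest) and Tmed8 (25) most.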
